A study of Mus musculus with 32 samples.

Results

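The response of the neonatal mouse forebrain to hypoxia-ischemia (HI) was examined on the 3 arrays that set pups injured at postnatal day 10 (P10) against naive pups 6 h after the insult. These arrays were taken by their titles from the 32 arrays of the study, 24 of which measure HI. The other HI arrays hold P10 pups at 3, 12 and 24 h and pups injured at postnatal day 5 (P5) at 3, 6, 12 and 24 h, with 3 arrays for each age and time point. Mice were of the NMRI strain. Injured pups had the right carotid artery tied for good under isoflurane, spent 1 h with the mother, and then breathed 8% oxygen for 40 min. Naive pups of the same litters had neither ligature nor hypoxia and were collected at the same time, so anesthesia, surgery and hypoxia differ together between the 2 groups. Each array held 1 pool of RNA from injured hemispheres, on the side of the ligature, in the red dye (Cy5) and 1 pool from right hemispheres of naive pups in the green dye (Cy3). The tissue is a hemisphere without the olfactory bulb, sectioned in front of the colliculus, so cortex, hippocampus, striatum, thalamus, vessels and any blood in them were measured together. Each array had a naive pool of its own. The pools rest on different animals, and p-values measure the spread between pairs of pools, which limma estimated jointly over all 24 HI arrays.

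Deprivation of oxygen and glucose depolarizes neurons and floods synapses with glutamate, and the calcium that enters switches on immediate early genes, whose products are mostly transcription factors. Damaged cells then alert microglia and astrocytes, which release chemokines and cytokines that attract leukocytes, while heat shock, unfolded protein and hypoxia responses protect the cells that survive. The forebrain at P10 is still making synapses and myelin, and glutamate and GABA receptors are exchanging their fetal subunits for adult ones.

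The value of a gene is the log2 ratio of the HI over the naive signal of its probe on an array, as processed by the scanner software (background subtracted, dyes balanced by Lowess). A ratio of 1 on this scale is a doubling of the signal and 0 is no difference. A probe was tested where its mean signal over the 3 arrays reached 100 in 1 dye, by the moderated test of limma on all 24 HI arrays, and a gene was called when 1 of its probes had an adjusted p under 0.05 and a change over 1.5-fold. Either dye sufficed, so a probe under 100 in naive pools was tested only if its HI signal reached 100. Counts and medians of lists with such genes can be raised by this filter. Where a gene has several probes, the value given is that of the called probe with the largest change. Other probes of such genes were not always called. Medians of gene lists use the brightest probe of each gene. Values after ± are SDs over the 3 arrays unless an SE is named. The gene lists hold genes of 1 pathway, function or cell type. Their counts are to be read beside the 7.62% of all named genes induced and the 7.39% repressed. Where a list is said to hold 0 calls in a direction at P10, it also held 0 at an unadjusted p under 0.05 with the same fold limit.

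Spots clearly brighter than background made up between 60 and 70.4% of the naive channels and between 67.1 and 78.7% of the HI channels, and no spot was saturated. Ratios of the 3 arrays correlated across the 19472 tested probes with r = 0.69 (replicates 1 and 2), 0.61 (1 and 3) and 0.59 (2 and 3), and the median SD between arrays was 0.20 on the log2 scale. Replicate 3 stood apart on a set of probes. On 77 probes its ratio was below -2.5 while both other arrays stayed above -1.2, and no probe was in that position on replicate 1 or replicate 2. The median naive signal of these probes was 652 on replicate 3 against 23.6 and 28.7 on the others, whereas their median HI signals were 54.1, 24.9 and 32.3. The naive pool of replicate 3 was therefore high on them and the HI pool was not low. They cover 50 named genes, 23 of which were called as repressions, and these values touch the list of strongest repressions, which is given with and without replicate 3.

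**Figure D1:**
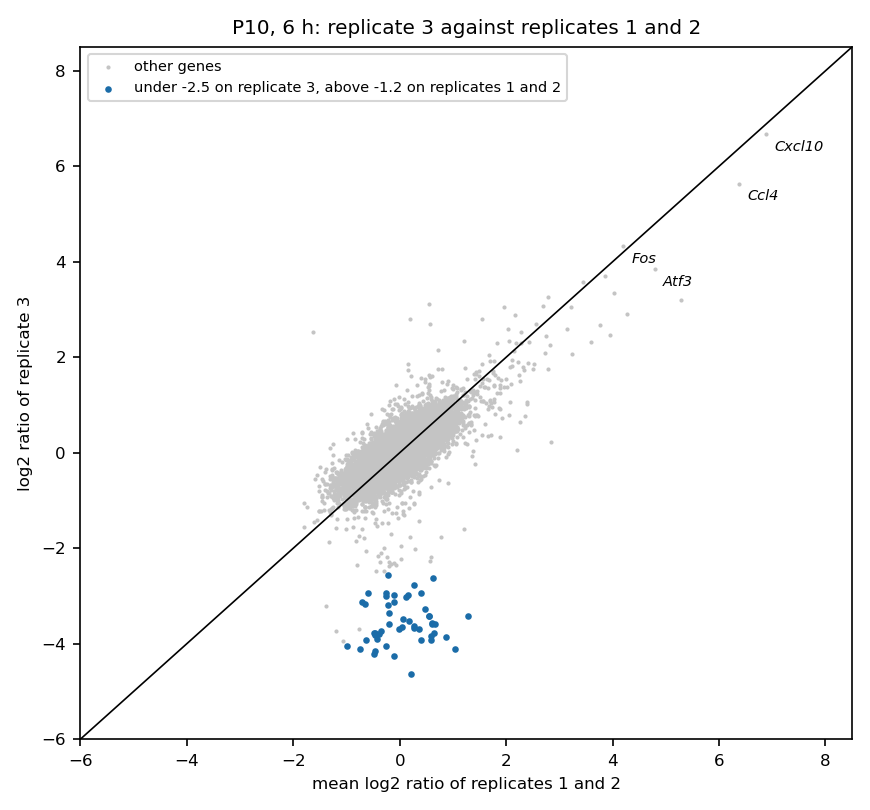
Each point is 1 of the 12206 named genes tested, with the mean log2 ratio (HI over naive) of replicates 1 and 2 on the x axis and the log2 ratio of replicate 3 on the y axis. The 50 genes that lie below -2.5 on replicate 3 alone form a band under the cloud, while strong inductions such as Cxcl10, Ccl4 and Fos follow the diagonal.

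At 6 h after HI at P10, 930 of the 12206 named genes tested were induced (7.62% of those tested) and 902 were repressed (7.39%), with 4 genes (Epha5, Ppig, Nufip2 and Robo2, named for this after their values were seen) counted in both because their probes went opposite ways. The median induction was 1.74-fold (interquartile range 1.59 to 2.01), 236 genes were induced over 2-fold, 41 over 4-fold and 13 over 8-fold, of which Il6 and Saa3 have a lower bound under 8-fold because their naive signals were not above background. The median repression was 1.67-fold (interquartile range 1.57 to 1.90), 159 genes were repressed over 2-fold, 3 over 4-fold and 0 over 8-fold. Of the 930 inductions 917 had the same direction on all 3 arrays, as had 885 of the 902 repressions, but only 117 inductions and 21 repressions passed 2-fold on every array. When signals were instead corrected by normexp and loess from the raw medians, 552 inductions and 262 repressions were called, so the share of inductions among calls went from 50.8 to 67.8%. HI RNA carried Cy5 on every array, so dye and injury cannot be told apart for a single probe by these arrays alone. With the dye bias estimated from arrays of naive P2 and P15 pools taken out, 886 inductions and 941 repressions were called, and 145 of the 151 named genes that were called kept their call.

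**Figure D2:**
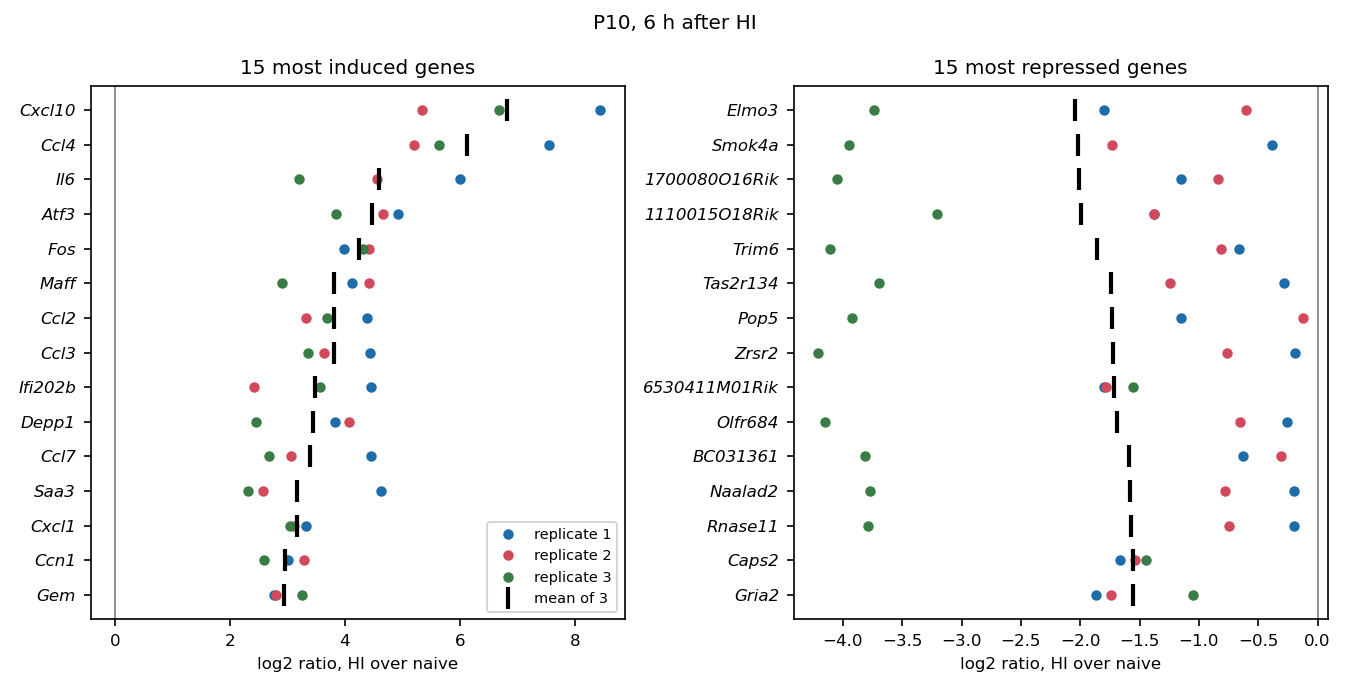
Log2 ratio (HI over naive, x axis) of the 15 most induced and the 15 most repressed named genes, 1 point per array with the mean as a bar. The 3 arrays of the induced genes lie on the same side and far from 0, whereas most of the repressed genes have 1 point, replicate 3, far to the left of the other two.

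The strongest inductions were chemokines, cytokines and immediate early transcription factors. Cxcl10, a chemokine that attracts T cells, had naive signals of 4.31, 6.96 and 5.73 on the 3 arrays, not well above background on any of them, and HI signals of 1500, 282 and 586. Its induction was at least 28.2-fold (limma, adjusted p = 9.0e-08) when the lowest signal above background stood in for the naive level. Ccl4, a chemokine made by activated microglia, went from naive signals of 28.5, 83.5 and 32.1 to HI signals of 5350, 3090 and 1600. All 3 HI pools were far above all naive pools for both genes, and replicate 1 held the highest HI signal of each. The log2 ratio of Ccl4 was 6.13 ± 1.25 (SD, n = 3) (70.2-fold, adjusted p = 6.4e-09). The 15 most induced genes also held Ifi202b, an interferon-inducible DNA-binding protein (3.49 ± 1.02), and Gem, a small GTPase that restrains calcium channels (2.95 ± 0.27). Depp1, a FoxO target linked to autophagy, and Saa3, an acute phase protein, were not well above background in any naive pool, and their inductions were at least 8.68-fold and at least 5.05-fold.

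Most immediate early transcription factors on the list were induced. Of the 24 genes on this list 20 were tested, 15 were induced and 0 repressed, with a median log2 ratio of 1.21 against -0.01 over all named genes. Atf3, a stress-induced repressor and activator of the ATF/CREB family, gave log2 ratios of 4.92, 4.67 and 3.84 on the 3 arrays. Its mean was 4.48 ± 0.56 (SD, n = 3), a 22.3-fold induction (adjusted p = 7.2e-09). Fos, the partner of Jun in the AP-1 factor, rose from naive signals of 74.4, 124 and 65.8 to HI signals of 1171, 2639 and 1300. The 3 arrays were close to each other, with a mean of 4.24 ± 0.23 (SD, n = 3) (18.9-fold, adjusted p = 5.8e-09). Maff, a small Maf protein that pairs with other basic leucine zipper factors, had ratios of 4.13, 4.42 and 2.90, with a naive signal well above background on 2 of the 3 arrays. Jun itself started from higher naive signals (704, 749 and 811) and its ratios were 2.65, 2.91 and 1.76, a 5.43-fold induction (adjusted p = 1.7e-06), with replicate 3 the lowest. The other induced members were Fosb, Fosl2, Egr1, Egr2, Egr4, Nr4a1, Klf2, Klf4, Ier2, Csrnp1 and Srf.

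The promoter of Maff is printed because it was the only one of the 19 immediate early genes with a promoter in the reference that held the cAMP response element TGACGTCA, the site bound by CREB. Both strands were searched in a window of 250 bases before to 50 after a transcript start, in RefSeq sequence of mouse build GRCm38.p6, and 2.03% of the 27025 genes with a promoter held the element. Capitals mark it, 29 bases before the first base of this transcript, which starts inside the gene. The window is chr15:79347270-79347569 on the plus strand.
Maff promoter: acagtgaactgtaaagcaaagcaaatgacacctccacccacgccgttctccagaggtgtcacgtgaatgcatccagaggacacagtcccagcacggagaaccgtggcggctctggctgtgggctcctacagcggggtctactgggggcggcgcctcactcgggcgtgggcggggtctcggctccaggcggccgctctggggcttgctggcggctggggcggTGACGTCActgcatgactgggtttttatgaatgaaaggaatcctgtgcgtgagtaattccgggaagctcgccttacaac

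Genes that neurons switch on later with activity responded less evenly. Of 18 tested, 5 were induced (Arc, Nptx2, Vgf, Gadd45b and Gadd45g) and 1 was repressed (Sorcs3, a sorting receptor), and the median log2 ratio was 0.22. Gadd45b, a DNA demethylation and stress adaptor, gave 2.29, 1.91 and 1.93 and its paralog Gadd45g 2.10, 2.04 and 1.07, which are 4.13-fold and 3.33-fold inductions (adjusted p = 2.0e-06 and adjusted p = 6.8e-06). Arc, which removes AMPA receptors from synapses, had ratios of 1.26, 2.07 and 0.92 (2.67-fold, adjusted p = 1.0e-05) and the secreted neuropeptide precursor Vgf 0.72, 1.28 and 0.50 (1.78-fold, adjusted p = 0.00012). Replicate 2 was the highest array for both Arc and Vgf and replicate 3 the lowest. Among 9 inhibitors of MAP kinase signalling, 3 were induced and 0 repressed. They were Dusp1 (1.56 ± 0.57, 2.95-fold), Dusp16 (0.89 ± 0.18, 1.85-fold) and Dusp14 (0.70 ± 0.16, 1.63-fold), all phosphatases of MAP kinases.

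Chemokines were the gene group with the highest median of the 3-array mean. Of the 18 on the array 14 were tested, 11 induced and 0 repressed, at a median log2 ratio of 2.04. Genes such as Cxcl10 reached the signal limit through their HI signal alone, so the filter itself favours inductions here. By array the chemokine median was 2.97, 1.59 and 1.80, so replicate 1 was the highest. On replicate 2 immediate early transcription factors had the higher median, 1.63. Ccl2, which draws monocytes, rose from naive signals of 141, 137 and 91.0 to 2959, 1375 and 1176, and Ccl3 from 51.0, 63.2 and 56.7 to 1100, 783 and 580. Their mean log2 ratios were nearly equal, 3.81 ± 0.54 (SD, n = 3) and 3.81 ± 0.56 (SD, n = 3) (adjusted p = 1.2e-08 and adjusted p = 4.5e-09). Ccl7, a monocyte attractant, had ratios of 4.45, 3.06 and 2.68 (adjusted p = 7.8e-05), and Cxcl1, a neutrophil attractant, 3.32, 3.11 and 3.06 (8.96-fold, adjusted p = 4.8e-05), its naive signal being well above background on 1 array. Ccl5, Ccl6, Ccl9, Ccl12 and the neuronal chemokine Cx3cl1 made up the rest of the induced members.

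Among secreted cytokines and their antagonists only 8 of 22 reached the signal limit, and 4 were induced. Il6, which signals through gp130 to STAT3, was not well above background in any naive pool (4.44, 6.70 and 6.06) and reached HI signals of 284, 158 and 55.9, an induction of at least 5.68-fold (adjusted p = 4.4e-05). Il1b, a cytokine matured by the inflammasome, had ratios of 2.76, 1.69 and 1.90 (4.34-fold, adjusted p = 0.00048). Csf1, the growth factor of microglia, gave 1.64, 1.5 and 1.55, nearly the same on each array, a 2.96-fold induction (adjusted p = 9.3e-07). Il11, another gp130 ligand, was lower at 0.76 ± 0.19 (SD, n = 3) (1.69-fold).

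Receptors for these signals were induced in 8 of 14 genes tested and repressed in 0. Cd14, the co-receptor for lipopolysaccharide, had ratios of 2.64, 1.89 and 1.5 and Tlr2, a pattern receptor, 2.20, 1.58 and 1.42. These are 4.03-fold and 3.33-fold inductions (adjusted p = 4.1e-05 and adjusted p = 5.7e-05), with replicate 1 the highest for both. Tnfrsf12a, the receptor of TWEAK, was induced 4.02-fold (2.01 ± 0.23) and the TNF receptor Tnfrsf1a 2.30-fold (1.2 ± 0.10). Genes acting downstream of NF-kB and STAT were induced in 5 of 14 cases and repressed in 0: Cebpd (2.03 ± 0.45, 4.09-fold) and Cebpb (1.77 ± 0.25, 3.41-fold), factors of the acute phase response, Socs3, the feedback inhibitor of STAT3 (1.65 ± 0.34, 3.15-fold), Nfkbia, the inhibitor of NF-kB (0.86 ± 0.51, 1.81-fold), and Stat3.

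Interferon-responsive genes were induced in 5 of the 13 tested and the arrays disagreed in size. Ifit3, which blocks viral RNA, had ratios of 2.68, 0.85 and 1.05 (2.88-fold, adjusted p = 9.1e-05), Gbp2, a guanylate-binding protein, 1.74, 0.55 and 0.80 (2.04-fold), and the transcription factor Irf1 1.24, 0.37 and 1.08 (1.87-fold). Replicate 1 was the highest for all of them, and the median of the whole list was 1.22 on replicate 1, 0.21 on replicate 2 and 0.53 on replicate 3. Without replicate 1, 3 were induced and 1 repressed, and with normexp and loess 3 were induced.

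The promoters of Cxcl10, Cxcl1 and Csf1 are printed as those of the induced chemokines and cytokines that held an NF-kB site. The induced Nfkbia also held such a site and is not printed. The letters GGGAATTTC, GGGACTTTC and GGGAAATTC were searched on both strands, and matches on both strands can overlap, as they do in Cxcl1. Of 11 chemokines with a promoter in the reference 4 held 1 of them (Cxcl1, Cxcl2, Cxcl9 and Cxcl10), as did 3 of 18 cytokines (Il16, Csf1 and Ifnb1) and 2 of 19 NF-kB and STAT genes (Nfkbia and Nfkb2), against 0.962% of all 27025 genes. A match of letters is a description and no evidence that a factor was bound. Capitals mark the site, which begins 159 bases before the gene's first base for Cxcl10 (chr5:92348840-92349139, minus strand), 71 before it for Cxcl1 (chr5:90890995-90891294, plus strand) and 153 before it for Csf1 (chr3:107760420-107760719, minus strand), in GRCm38.p6 and read along the gene's strand.
Cxcl10 promoter: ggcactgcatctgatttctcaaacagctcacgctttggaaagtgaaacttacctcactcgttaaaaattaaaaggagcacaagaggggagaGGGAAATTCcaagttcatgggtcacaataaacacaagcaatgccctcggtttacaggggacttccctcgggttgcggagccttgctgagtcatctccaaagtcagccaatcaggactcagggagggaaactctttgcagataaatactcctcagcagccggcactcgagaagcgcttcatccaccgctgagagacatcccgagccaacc
Cxcl1 promoter: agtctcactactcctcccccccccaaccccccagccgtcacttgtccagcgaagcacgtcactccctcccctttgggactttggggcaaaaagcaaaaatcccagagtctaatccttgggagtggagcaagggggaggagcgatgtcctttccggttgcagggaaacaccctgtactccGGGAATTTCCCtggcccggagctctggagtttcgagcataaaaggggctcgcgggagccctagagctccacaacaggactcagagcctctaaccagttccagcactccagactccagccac
Csf1 promoter: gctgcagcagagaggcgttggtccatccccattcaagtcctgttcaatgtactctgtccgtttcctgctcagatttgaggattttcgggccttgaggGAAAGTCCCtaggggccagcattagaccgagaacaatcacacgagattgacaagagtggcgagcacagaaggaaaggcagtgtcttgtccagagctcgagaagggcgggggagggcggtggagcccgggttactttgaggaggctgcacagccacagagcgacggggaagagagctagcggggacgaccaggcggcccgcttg

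Lists of stress response and cell death genes were induced in part of their members. They held 1 repression in all, on the p53 and cell death list. Heat shock proteins and co-chaperones were induced in 7 of 20 genes (Hspa1a, Hspa8, Hspb1, Hspb8, Bag3, Hspa4 and Fkbp4). Hspa1a, the inducible Hsp70, gave ratios of 3.44, 3.03 and 2.08 (7.20-fold, adjusted p = 3.7e-05), its naive signal being well above background on 1 array. Its co-chaperone Bag3 had 1.46, 1.81 and 1.54 (3.04-fold, adjusted p = 2.8e-05), and the small heat shock protein Hspb1 1.91, 1.24 and 1.37 (2.84-fold). The constitutive Hspa8, already bright in naive pools (10500, 7050 and 16200), was induced 2.06-fold with ratios of 0.91, 1.62 and 0.59. A heat shock element (3 alternating GAA and TTC units, spaced by 2 free bases) was found in the promoters of 4 of 17 of these genes (Hsph1, Hspd1, Hspe1 and Chordc1) against 0.662% of all genes, and in 0 of the 6 induced ones with a promoter in the reference.

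The integrated stress response slows translation and raises ATF4, and its genes were counted together with those of the unfolded protein response. Of 23 tested, 9 were induced and 0 repressed. Atf4, central to the integrated stress response, started from naive signals of 14100, 11700 and 16500 and reached 30400, 31200 and 37500. Its ratios of 1.11, 1.42 and 1.18 differed little, a 2.36-fold induction (adjusted p = 1.5e-08). Its targets Trib3, a pseudokinase (1.65 ± 0.61, 3.14-fold), Ppp1r15a, which ends the translation block (1.25 ± 0.14, 2.38-fold), and Chac1, which degrades glutathione (1.09 ± 0.17, 2.13-fold), were induced as well, together with Ddit4, Phgdh, Slc3a2, Slc7a5 and the endoplasmic reticulum chaperone Hspa5. The other unfolded protein response genes Herpud1, Xbp1, Dnajb9, Sdf2l1, Creld2, Manf, Pdia4 and Hsp90b1 were tested and not called.

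Targets of hypoxia-inducible factors were induced in 10 of 23 genes, at a median of 0.47, and repressed in 0. Adm, a vasodilator peptide, had ratios of 2.43, 2.13 and 2.30 (4.89-fold, adjusted p = 2.5e-06). Slc2a1, the glucose transporter of the blood-brain barrier, had 1.88, 1.5 and 1.11 (2.83-fold), and Pfkfb3, which drives glycolysis, 1.44, 1.68 and 1.07 (2.64-fold). Hmox1, which degrades heme and answers to oxidative stress too, had 1.82, 1.55 and 0.99 (2.74-fold). All 4 were highest on replicate 1 or 2 and lowest on replicate 2 or 3. Another probe of Hmox1 gave a mean of -0.06 and was not called. The hypoxia element TACGTGC was found in 5 of 26 promoters of the list (19.2% against 0.903% of all genes), and in 0 of the 8 induced members with one.

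Among oxidative stress and metallothionein genes 6 of 19 were induced. The metal-binding Mt2 and Mt1 were bright in naive pools (5170, 6820 and 9680 and 14800, 15100 and 19300) and had ratios of 2.92, 1.89 and 1.87 and of 2.21, 1.47 and 1.56, which are 4.68-fold and 3.35-fold inductions (adjusted p = 1.9e-06 and adjusted p = 6.5e-06). Txnip, an inhibitor of thioredoxin, was induced 1.88-fold (0.91 ± 0.27). The glucocorticoid-responsive list, to which Mt1, Mt2, Dusp1 and Tgm2 also belong, counted 9 inductions and 0 repressions in 15 genes, with Tsc22d3, Pdk4, Errfi1, Map3k6 and Nfkbia as the others. Tgm2, a protein cross-linking enzyme, had ratios of 1.53, 2.19 and 0.93 (2.93-fold), while its brighter probe gave a mean of -0.06 and was not called. In the p53 and cell death list 6 of 22 genes were induced and 1, Ccng1, was repressed. Fas, a death receptor, had 2.79, 2.86 and 2.26 (6.22-fold, adjusted p = 2.1e-06), Pmaip1, the killer protein Noxa, 2.03, 1.75 and 1.26 (3.20-fold), the survival protein Mcl1 1.53, 1.29 and 1.28 (2.58-fold) and the cell cycle inhibitor Cdkn1a 1.15, 1.26 and 1.05 (2.22-fold). A brighter probe of Mcl1 gave a mean of 0.27 and was not called. Circadian clock genes were induced in 5 of 13 cases and repressed in 0, led by the nuclear receptor Nr1d1 with 1.41, 2.15 and 1.91 (3.54-fold, adjusted p = 1.5e-06) and by the repressor Nfil3 with 1.28, 1.49 and 1.22 (2.51-fold, adjusted p = 6.4e-09). Bhlhe40 (1.18 ± 0.12) and Cry2 (0.71 ± 0.31) also rose, and Rorb is shared with the neuronal factors.

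**Figure D3:**
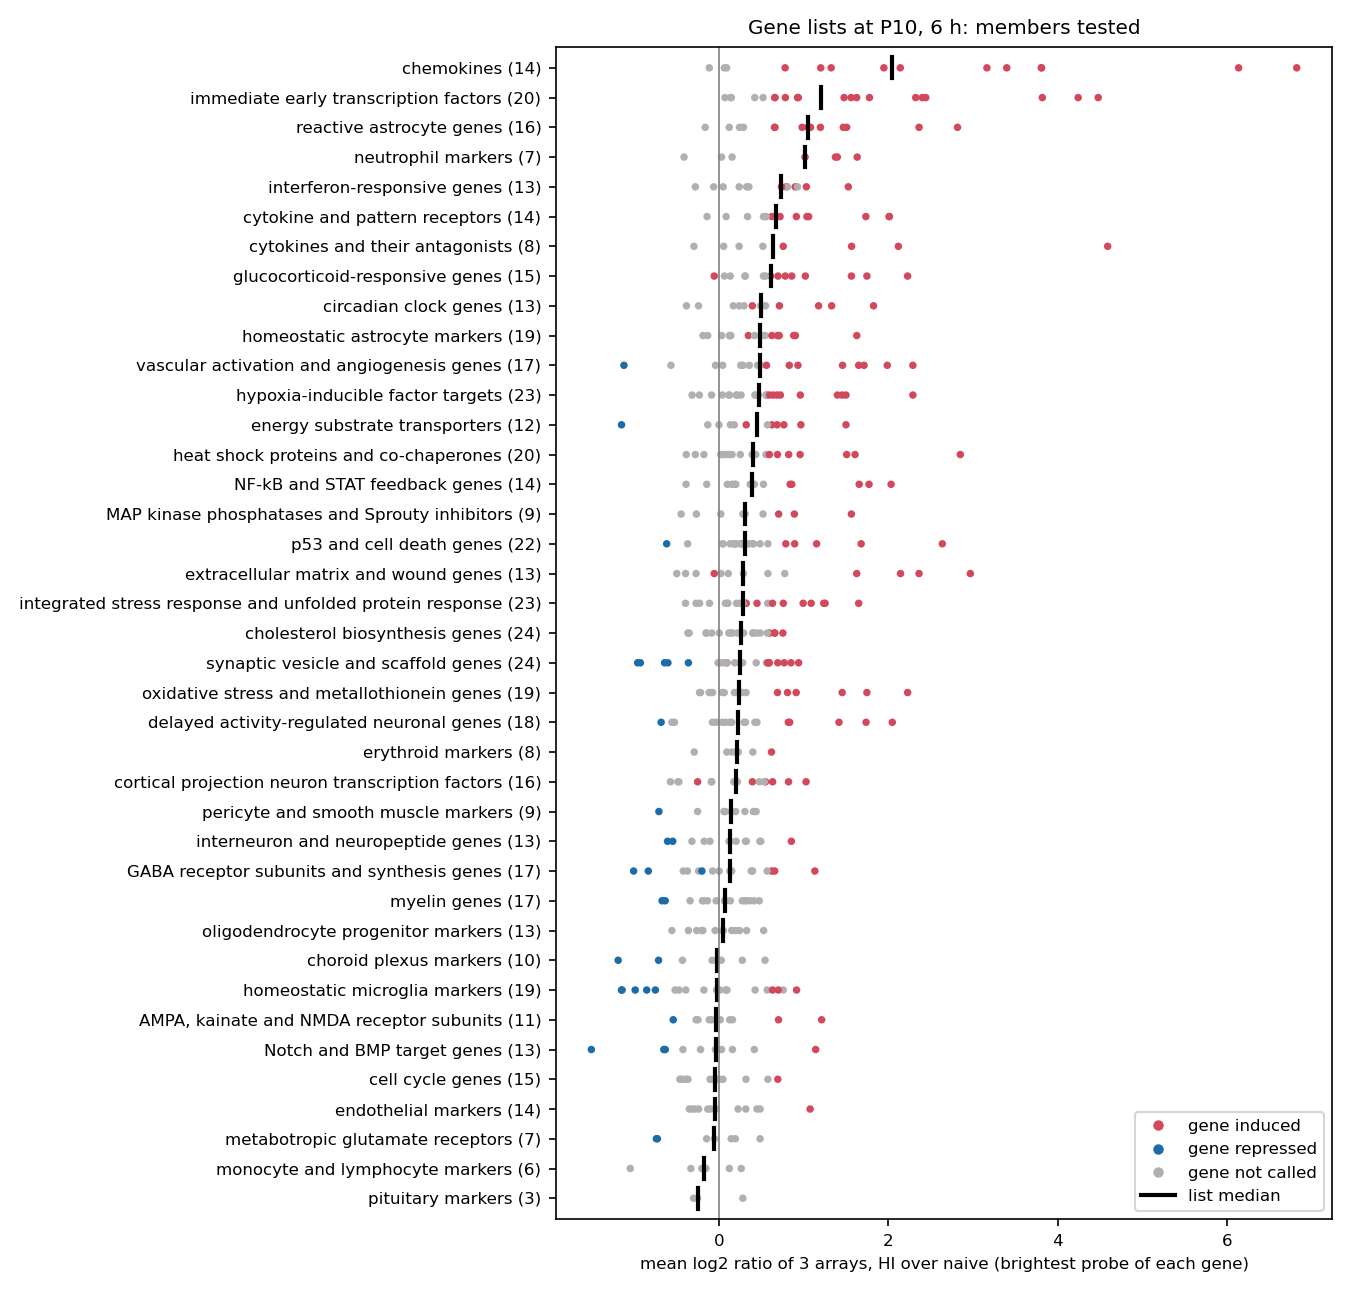
Log2 ratio (HI over naive, mean of 3 arrays, x axis) of the tested members of each gene list (y axis), 1 dot per gene at its brightest probe, coloured by whether any probe of the gene was called as induced or repressed, with the list's median as a bar. Chemokines, immediate early transcription factors and reactive astrocyte genes lie to the right, while lists of neuronal and microglial genes straddle 0 with calls on both sides.

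Astrocytes feed neurons and clear glutamate, and genes were induced on both the reactive and the homeostatic astrocyte list. RNA of a whole hemisphere does not show which cells held these inductions. Reactive astrocyte genes were induced in 12 of 16 cases and repressed in 0, with a median of 1.05. Emp1, a tetraspan membrane protein, had ratios of 2.85, 2.53 and 3.07 (7.04-fold, adjusted p = 2.9e-07), the protease inhibitor Timp1 2.71, 1.85 and 2.53 (5.14-fold, adjusted p = 6.5e-08), and the intermediate filament Vim 1.72, 1.29 and 1.39 (2.76-fold, adjusted p = 2.2e-06). Gfap, Lcn2, Serpina3n, Osmr, S1pr3, Tm4sf1, B3gnt5, Aspg and Hspb1 were the others. Homeostatic astrocyte markers were induced in 8 of 19 cases and repressed in 0. Slc1a2, the main glutamate transporter, had 2.58, 2.12 and 0.76 (3.53-fold, adjusted p = 0.00021), glutamine synthetase Glul 1.17, 1.21 and 0.33 (1.87-fold), the bicarbonate transporter Slc4a4 1.04, 1.21 and 0.39 (1.84-fold) and the water channel Aqp4 0.90, 1.16 and 0.55 (1.83-fold). Replicate 3 was the lowest array for each of these 4 genes. A brighter probe of Aqp4 gave a mean of 0.35 and was not called. Without replicate 2, 5 of the 19 markers were induced.

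Microglial markers split. Of 19 tested, 3 were induced (Itgam, C1qb and C1qc) and 5 repressed, and the median was -0.03. Without replicate 1, 1 was induced, and with normexp and loess 2 were repressed. The repressed genes included sensors and a transporter of resting microglia. Gpr34, a lysophosphatidylserine receptor, fell from naive signals of 957, 1180 and 927 to HI signals of 411, 531 and 444, a 2.21-fold repression that was nearly the same on each array (-1.22, -1.15 and -1.06, adjusted p = 3.5e-08). The ADP receptor P2ry13 had -1.32, -0.75 and -0.90 (1.99-fold, adjusted p = 2.4e-05) and the fructose transporter Slc2a5 -1.72, -0.73 and -0.99 (2.22-fold, adjusted p = 0.00012). P2ry12 and Tmem119 were the others. In tissue RNA, fewer cells of a type and less RNA per cell cannot be told apart.

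Markers of blood cells were examined because vessels were part of the tissue. Of 15 neutrophil markers 7 were tested and 4 were induced: S100a9 (2.45, 1.2 and 1.25, adjusted p = 0.022), S100a8 (2.07, 0.97 and 1.08, adjusted p = 0.047), Stfa1 (1.86, 1.04 and 1.29, adjusted p = 0.036) and the receptor Csf3r (1.18, 0.89 and 0.97, adjusted p = 0.011). Replicate 1 was the highest array for all 4, and leaving out replicate 1 left 0 of them called, leaving out replicate 2 or 3 left 2. The granule genes Camp, Elane and Prtn3 were tested and not called. The granule genes Ngp, Ltf, Mpo, Mmp8 and Ctsg did not reach the signal limit. Summed over the tested markers, the naive signals were 111553, 162329 and 60980 and the HI signals 254479, 300873 and 119251, nearly all of it from the Csf3r probe (110000, 160000 and 59700 in naive pools). Monocyte and lymphocyte markers gave 0 inductions and 0 repressions in 6 genes by limma. Cd3e of T cells had ratios of 0.11, -0.63 and -0.47. Erythroid markers gave 1 induction in 8, the globin Hba-a2 (0.85, 0.53 and 0.48, 1.54-fold), next to Hba-a1, which did not pass (0.40 ± 0.23, adjusted p = 0.084). This is 12.5% of the erythroid list, against 7.62% of all named genes. Whether blood left in the vessels takes part in the immune inductions was not tested.

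Genes of vascular activation were induced, and few markers of vessel cells were called. Vascular activation and angiogenesis genes were induced in 8 of 17 cases and 1, the protease Adamts9, was repressed. Besides Adm these were the protease Adamts1 (1.97, 1.69 and 2.30, 3.96-fold, adjusted p = 3.5e-06), Angpt2, which loosens vessels (1.73, 2.05 and 1.35, 3.28-fold, adjusted p = 0.0014), and Esm1, made by endothelial tip cells (1.21, 1.89 and 1.85, 3.14-fold, adjusted p = 0.00011), with Vegfa, Angptl4, Plat and Plaur. Of 14 endothelial markers only Ly6a was induced, with ratios of 1.87, 0.74 and 0.62 of which replicate 1 was far above the others. The pericyte marker Higd1b was the only 1 of 9 mural cell genes called, as a repression (-0.71 ± 0.22, 1.64-fold). Thus 7.14% of endothelial markers were induced and 11.1% of mural cell genes repressed, against 7.62 and 7.39% of all named genes. Among extracellular matrix and wound genes 5 of 13 were induced: Ccn1, a matricellular protein (3.01, 3.29 and 2.60, 7.82-fold, adjusted p = 6.5e-08), Timp1, the galectin Lgals3 (2.79, 1.89 and 1.74, 4.42-fold, adjusted p = 1.7e-07), the phagocyte protein Spp1 (2.55, 1.54 and 0.78, 3.09-fold) and Tgm2. Of 10 choroid plexus genes 2, the channel subunits Kcne2 (-1.19 ± 0.36, 2.28-fold) and Kcnj13 (-0.71 ± 0.37, 1.64-fold), were repressed, and 0 of 3 pituitary markers were called. A dimmer probe of Kcnj13 gave a mean of 0.13 and was not called.

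The ranking of repressions depended on replicate 3. Of the 15 most repressed genes 8 are on probes that were low on replicate 3 alone, and 11 had an SD between arrays over 1.5. Elmo3, which heads the ranking, gave -1.80, -0.60 and -3.74 with naive signals of 16.6, 20.8 and 595, and Trim6, a ubiquitin ligase, gave -0.67, -0.81 and -4.11 with naive signals of 8.28, 7.82 and 707. On both, replicate 3 is an outlying array and its naive pool the high sample. Smok4a, 1700080O16Rik, Tas2r134, Pop5, Zrsr2, Olfr684, BC031361, Naalad2 and Rnase11 had the same form, with ratios on replicate 3 between -4.21 and -3.70, and 1110015O18Rik had -1.38 on replicates 1 and 2 and -3.21 on replicate 3. Brighter probes of Elmo3, Pop5 and Zrsr2 gave means of -0.50, -0.46 and 0.53 and were not called.

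Only 3 of the 15 stayed among the 15 most repressed when replicate 3 was left out: 6530411M01Rik, Caps2 and Gria2. The transcript 6530411M01Rik fell from naive signals of 251, 245 and 247 to 72.3, 71.1 and 84.1 (3.28-fold, adjusted p = 1.2e-08). Caps2, a calcium-binding protein related to calcyphosine, had ratios of -1.67, -1.54 and -1.45 (2.93-fold, adjusted p = 5.3e-07). Gria2, the AMPA receptor subunit that keeps calcium out, had -1.87, -1.74 and -1.05 (2.93-fold, adjusted p = 4.7e-06), while a brighter probe of Gria2 gave a mean of -0.54 and was not called. Of the genes that entered the ranking without replicate 3 (named after their values were seen), Tasor, a gene silencing factor, had -1.93, -1.55 and -1.13 on the 3 arrays, and Slitrk6, a synaptic adhesion protein, -1.49, -1.61 and -1.42. Cttnbp2, Csmd1, Frmpd4 and Cntn3, genes expressed in neurons, were low on replicates 1 and 2 and between -0.70 and -0.31 on replicate 3.

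Neuronal receptor and synapse genes went both ways. Among AMPA, kainate and NMDA receptor subunits, 2 of 11 were induced and Gria2 repressed. Grin2b, the NMDA receptor subunit of immature synapses, had 1.18, 1.12 and 1.33 (2.32-fold, adjusted p = 0.0006), and the obligatory subunit Grin1 0.61, 1.07 and 0.43 (1.63-fold, adjusted p = 8.1e-05). The presynaptic glutamate receptors Grm7 (-0.74 ± 0.32) and Grm8 (-0.73 ± 0.09) were both repressed, with 7 metabotropic receptors tested. Of 17 genes of GABA receptors and synthesis 3 were induced and 3 repressed. Gabra4 fell from naive signals of 1180, 1400 and 1420 to 479, 696 and 865 (2.01-fold, adjusted p = 3.7e-05). Every array was below 0 for Gabra4. Gabrb1 was induced at 1.01, 1.61 and 0.77 (2.19-fold, adjusted p = 5.1e-06), as were Gabrg3 and the vesicular GABA transporter Slc32a1.

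Among 24 synaptic vesicle and scaffold genes 8 were induced (among them Syn1, Syn2, Snap25, Bsn, Nrxn2, Camk2a and Camk2b) and 5 repressed (among them Pclo, Nrxn3, Nlgn1 and Nlgn3). The active zone scaffold Pclo had -1.19, -1.44 and -0.68 (2.15-fold, adjusted p = 2.3e-05), the adhesion protein Nrxn3 -1.2, -1.13 and -0.55 (1.95-fold) and its partner Nlgn1 -1.32, -1.24 and -0.22 (1.90-fold). Replicate 3 was the closest to 0 for these 3 genes. A brighter probe of Pclo gave a mean of -0.36 and a dimmer one -0.29, and neither was called. Dimmer probes of Nrxn3 gave means of -0.04 and -0.15 and were not called. The kinase Camk2a, which stores synaptic strength, was induced with 1.07, 1.06 and 0.69 (1.92-fold, adjusted p = 0.00094). Another probe of Camk2a gave a mean of 0.53 and was not called. Genes of cortical projection neurons, mostly transcription factors, were induced in 6 of 16 cases and repressed in 0. The 6 were Bcl11b (0.65, 1.52 and 0.92, 2.04-fold, adjusted p = 0.00027), which specifies deep-layer neurons, Mef2c (0.82 ± 0.25, 1.77-fold), Rorb (0.69 ± 0.08, 1.62-fold), the kinase Camk4 (0.66 ± 0.36, 1.59-fold), Foxp1 and Mef2a. Other probes of Camk4 gave means of -0.25 and 0.14 and a brighter one of Rorb 0.39, and none of these was called. A dimmer probe of Bcl11b gave a mean of 0.23 and was not called. The Mef2a probe had means of -0.12 at 3 h, 0.63 at 6 h and -0.66 at 24 h, where it was repressed. Of 13 interneuron and neuropeptide genes Lhx6 was induced (0.85 ± 0.21), and the calcium buffer Pvalb (-1.04, -0.82 and -1.11, 1.99-fold, adjusted p = 0.00013) and the peptide Vip (-0.89, -0.53 and -0.40, 1.52-fold) were repressed. A brighter probe of Pvalb gave a mean of -0.55 and was not called. In the interneuron list 7.69% were induced and 15.4% repressed, against 7.62 and 7.39% of all named genes.

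The probes of Csf3r, Itgam and Lhx6, markers of 3 unrelated cell types, were very bright in naive pools (110000, 160000 and 59700 for Csf3r, 44000, 69600 and 20300 for Itgam, 36800, 61900 and 15100 for Lhx6) and followed the same course. Their mean log2 ratios were 1.02, 0.92 and 0.85 at 6 h, 0.01, 0.00 and -0.02 at 3 h, 1.00, 0.77 and 0.76 at 12 h and -0.83, -0.58 and -0.64 at 24 h. A dimmer probe of Lhx6 gave a mean of 0.16 and one of Itgam 0.58 at 6 h, and neither was called. Brightness thus went together with the inductions of Csf3r, Itgam and Lhx6, and its part in them was not tested.

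Transporters of energy substrates were induced in 6 of 12 cases (Slc2a1, Slc2a3, Slc16a3, Slc16a6, Slc7a5 and Slc7a1) and repressed in 1, Slc2a5. The lactate exporter Slc16a3 had 1.2, 0.91 and 0.47 (1.81-fold). Cholesterol biosynthesis genes were induced in 4 of 24 cases, all by less than 2-fold: Insig1, the sterol sensor partner (0.75 ± 0.31), and the enzymes Pmvk (0.66 ± 0.14), Lss (0.65 ± 0.14) and Hsd17b7 (0.60 ± 0.10), with 0 repressions. Leaving out replicate 2 left 1 of them. Targets of Notch and BMP signalling gave 3 repressions and 1 induction in 13 genes (23.1 and 7.69%, against 7.39 and 7.62% of all named genes). Hes5, the Notch effector that keeps progenitors from differentiating, fell from naive signals of 8100, 10900 and 9000 to 3120, 4510 and 2460. Its ratios were -1.38, -1.27 and -1.87 (2.84-fold, adjusted p = 2.2e-07), with every HI pool below every naive pool. Nrarp, a feedback inhibitor of Notch (-0.65 ± 0.04, 1.57-fold), and Id3, a target of BMP (-0.63 ± 0.24, 1.55-fold), were lower by less, and Smad6, an inhibitor of BMP signalling, was induced (1.14 ± 0.30, 2.21-fold). Oligodendrocyte progenitor markers gave 0 calls in 13 genes by limma (Nkx2-2 was at -0.56 ± 0.31 (SD, n = 3), under the 1.5-fold limit). Myelin genes gave 1 induction (Mbp, 0.75 ± 0.36, 1.68-fold) and 2 repressions (Aspa, -0.67 ± 0.40, and Gal3st1, -0.64 ± 0.18) in 17, and cell cycle genes 1 induction in 15 (Tyms, 0.69 ± 0.47). A brighter probe of Mbp gave a mean of 0.07 and was not called. Myelin genes were induced in 5.88% and repressed in 11.8%, and cell cycle genes were induced in 6.67%. Over all named genes these shares were 7.62 and 7.39%.

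Counts of several lists changed by over 1.5 times when 1 array was left out. Without replicate 2, 4 synaptic vesicle and scaffold genes, 1 GABA gene and 1 AMPA, kainate or NMDA receptor subunit were induced, 0 mural cell and 1 choroid plexus gene were repressed, and 1 choroid plexus gene was induced. Without replicate 1, 3 synaptic vesicle and scaffold genes and 1 interneuron gene were repressed, Ccng1 lost its call, and 0 interneuron, endothelial and erythroid markers were induced, the last also without replicate 2. Without replicate 3, 5 GABA genes, 2 endothelial markers and 2 myelin genes were induced and 4 activity-regulated genes repressed, and without replicate 2 or 3 the repressed myelin genes numbered 1. Projection neuron genes gave 1 repression when any 1 of the 3 arrays was left out. With normexp and loess the inductions were 4 in cytokine receptors, 2 in cytokines, 2 in projection neuron genes, 4 in synaptic genes, 3 in circadian genes and 3 in matrix genes, and repressions were 3 in synaptic genes, 1 in Notch and BMP targets and 0 in interneuron and myelin genes.

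Whether the 6 h response differed between ages was tested directly, as the P10 minus the P5 log2 ratio in the same model. Of 11037 named genes tested at both ages 332 had a higher ratio at P10 (3.01%) and 272 a lower one (2.46%). Of the 930 inductions at P10 219 (23.5%) were also called at P5, which is 63.8% of the 343 inductions there, and of the 902 repressions 87 (9.65%) were shared, which is 60.4% of the 144 at P5. Slides of P5 and P10 arrays are different, so age and slide cannot be told apart. The counts leaned on single arrays: without P10 replicate 2 they were 97 higher and 117 lower, without P5 replicate 2 144 and 173, and without P10 replicate 1 524 were higher.

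Genes with a higher ratio at P10 included glial, neuronal and cytoskeletal ones. Dpysl3, which guides growing axons, had 1.18, 1.65 and 1.1 at P10 and 0.03, 0.06 and 0.29 at P5, a difference of 1.18 ± 0.20 (SE, adjusted p = 0.0028). Slc1a2, on its brightest probe, had 2.00, 1.88 and 1.01 at P10 and 0.24, 0.14 and 0.92 at P5, a difference of 1.19 ± 0.33 (SE, adjusted p = 0.024). For Dpysl3 the ages did not overlap, and for Slc1a2 the lowest P10 array lay just above the highest P5 array. Slc4a4 had 1.04, 1.21 and 0.39 against -0.64, 0.00 and -0.37, and the tubulin Tubb2b 0.62, 1.30 and 0.72 against -0.22, -0.91 and -0.11. Bcl11b (1.23 ± 0.26), Egr4 (1.21 ± 0.35) and Grin2b (1.19 ± 0.34) were also among the 8 largest differences, given as difference ± SE. For Grin2b the P5 arrays were at -0.46, -0.41 and 0.94, so they were spread widely.

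By list, homeostatic astrocyte markers had a higher ratio at P10 in 6 of 19 genes (Slc1a2, Slc4a4, Glul, Aqp4, Aldoc and Acsbg1). At P5 0 of 19 were induced by limma, also at an unadjusted p, where 2.85% of 12031 named genes were induced and 1.2% repressed. Synaptic vesicle and scaffold genes were higher at P10 in 7 of 24 (among them Camk2a, Nrxn2, Camk2b, Syt1 and Syn1). Cholesterol biosynthesis genes were higher in 8 of 24 (among them Stard4, Mvd, Hsd17b7, Fdft1, Msmo1, Nsdhl and Hmgcs1), with 0 inductions and 3 repressions at P5 and 4 and 0 at P10. The share of all genes called differs between the ages, so counts of calls at each age are not compared. Immediate early transcription factors were higher in 5 of 19 (Egr2, Egr4, Srf, Fosl2 and Nr4a2). By limma 0 of the tested cytokines, cytokine receptors, NF-kB and STAT genes and interferon-responsive genes differed between ages (at an unadjusted p 1, 2, 0 and 1 did), and Cx3cl1 was the only chemokine that did. A difference that was not called is not shown to be absent.

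Genes with a lower ratio at P10 were led by 1110015O18Rik (difference -1.34 ± 0.34, SE), which carries the low value of replicate 3, as does Zfp830 (-0.43, -0.47 and -2.47 at P10, difference -1.16 ± 0.34). Lrif1, a chromatin factor of the inactive X, had -1.14, -1.27 and -0.77 at P10 and 0.13, -0.14 and 0.03 at P5 (-1.07 ± 0.15, adjusted p = 0.0017). Mterf1b, of a family of mitochondrial transcription factors, had -1.19, -1.0 and -0.98 against -0.13, 0.20 and -0.20 (-1.01 ± 0.16). The 2 ages did not overlap for either gene. Agrp, the appetite peptide of the hypothalamus (-1.04 ± 0.25), 4831440E17Rik (-1.17 ± 0.33), Arl16 (-1.03 ± 0.30) and Cd209f (-1.03 ± 0.26) followed. Of the repressed list members Id3 (-0.80), Hes5 (-0.75), Gpr34 (-0.64), Gabra4 (-0.68), Kcne2 (-0.69) and Gria2 (-0.82) had lower ratios at P10 than at P5.

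**Figure D4:**
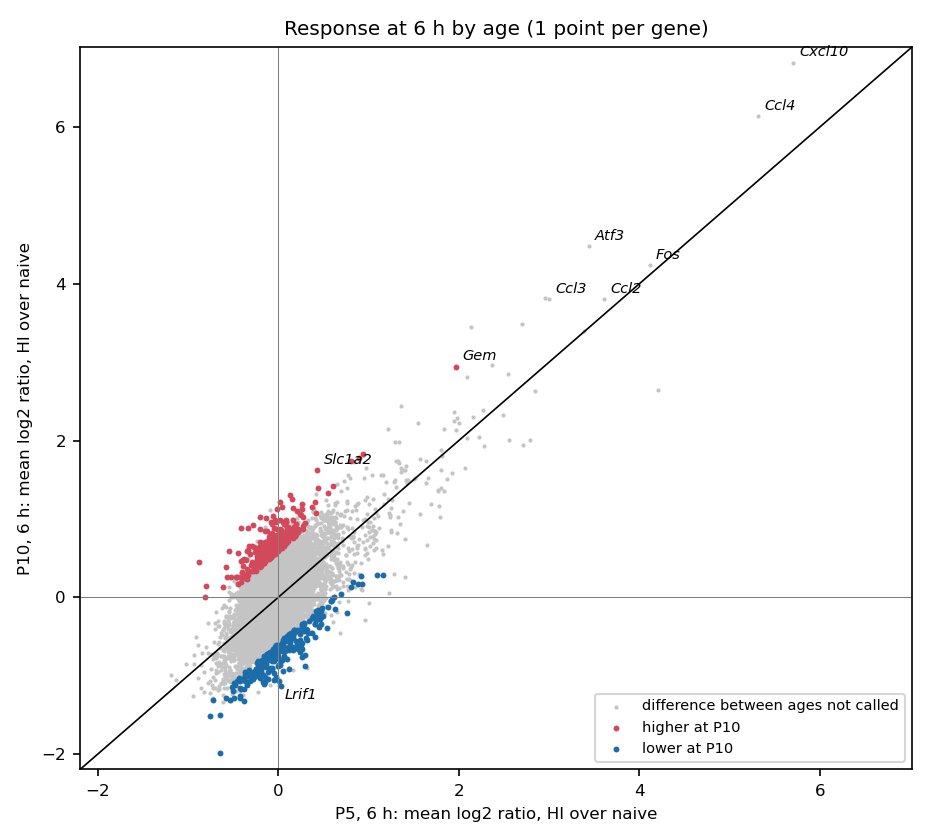
Mean log2 ratio (HI over naive) at 6 h at P5 (x axis) against P10 (y axis) for 11016 named genes at their brightest probe, 3 arrays per age, with the genes whose difference was called in colour (277 higher and 227 lower at P10). Strong inductions such as Fos and Ccl2 lie near the diagonal (4.24 at P10 and 4.11 at P5 for Fos), while Slc1a2 lies above it and Lrif1 below it.

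Along the P10 time course, 320 of the 930 inductions at 6 h were called at 3 h (34.4%, and 65.0% of the 492 there), 553 at 12 h (59.5%, and 63.7% of 868) and 427 at 24 h (45.9%, and 29.8% of 1432). Of the 902 repressions 108 were called at 3 h (12.0%, and 55.1% of the 196 there), 348 at 12 h (38.6%, and 58.2% of 598) and 76 at 24 h (8.43%, and 8.63% of 881). There were 139 genes induced at all 4 times and 7 repressed at all 4, while 175 inductions and 481 repressions were called at 6 h alone. These include genes not tested at another time. Of the inductions 856, 926 and 885 were tested at 3, 12 and 24 h, and of the repressions 811, 883 and 849. In all, 11556, 12996 and 12150 named genes were tested at those times. A call at 1 time and none at another is not a test of the difference.

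The tested difference between 6 and 3 h was called for 4 genes without a block (0.0348% of 11491), all lower at 6 h. With the replicate number, which here is the slide, as a block, 39 genes were higher and 176 lower (1.87% in all). Hes5 was the largest, at -1.38, -1.27 and -1.87 at 6 h and -0.37, 0.26 and 0.03 at 3 h (-1.48 ± 0.18, SE, adjusted p = 0.0029 without and 0.010 with the block), and it was not called at 3 h. Btg2, an antiproliferative p53 target, had 0.93, 1.25 and 0.50 at 6 h and 1.82, 1.98 and 2.21 at 3 h, and Klf6, an immediate early factor, had -0.04, 0.20 and 0.28 and 0.75, 0.94 and 1.17. For both genes every 6 h array lay below every 3 h array. The other gene was the adhesion protein Flrt3 (-0.49 at 6 h, 0.27 at 3 h). Without replicate 3 of the 6 h arrays 135 genes were lower and 15 higher.

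Between 6 and 12 h the difference was called for 7 higher and 17 lower genes (0.198% of 12115) without a block, and for 54 and 72 with it. The genes higher at 6 h included the tubulins Tuba1b and Tuba4a and the sterol enzymes Mvd and Fdft1. Tuba1b had 0.08, 0.86 and 0.29 at 6 h and -0.80, -0.36 and -0.66 at 12 h, and Tuba4a -0.08, 0.60 and 0.11 against -0.98, -0.55 and -0.78. Mvd (-0.08, 0.40 and 0.11 against -0.94, -0.71 and -0.75) and Fdft1 (0.13, 0.94 and 0.39 against -0.61, -0.31 and -0.43) are enzymes of cholesterol synthesis. In all 4 genes the 6 h arrays were above the 12 h arrays and the 12 h arrays all below 0. Msantd1 (0.68 ± 0.13, SE), Wdr33 (0.65 ± 0.13) and Wnt4 were also higher. Another probe of Tuba1b gave a mean of -0.15 at 6 h.

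Lower at 6 than at 12 h were Cntf, a survival factor for neurons, with -0.05, 0.25 and 0.51 at 6 h and 1.21, 1.35 and 1.15 at 12 h, and Angpt1, which stabilizes vessels, with -0.79, -0.75 and -0.49 against 0.46, 0.74 and -0.03. Omg, a myelin inhibitor of axon growth, was repressed at 6 h (-0.98, -0.49 and -0.91) and at 0.15, 0.49 and 0.39 at 12 h. The 2 times did not overlap for any of the 3. Ratios of Bbs12, a chaperonin-like protein of cilia (-1.26, -1.37 and -1.24 against -0.48, 0.01 and -0.82), Nudt7, a peroxisomal hydrolase (-1.24, -1.14 and -1.57 against -0.42, -0.26 and -0.85), Lrrtm3, a synaptic adhesion protein, Lrif1 and 6530411M01Rik were closer to 0 at 12 h.

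**Figure D5:**
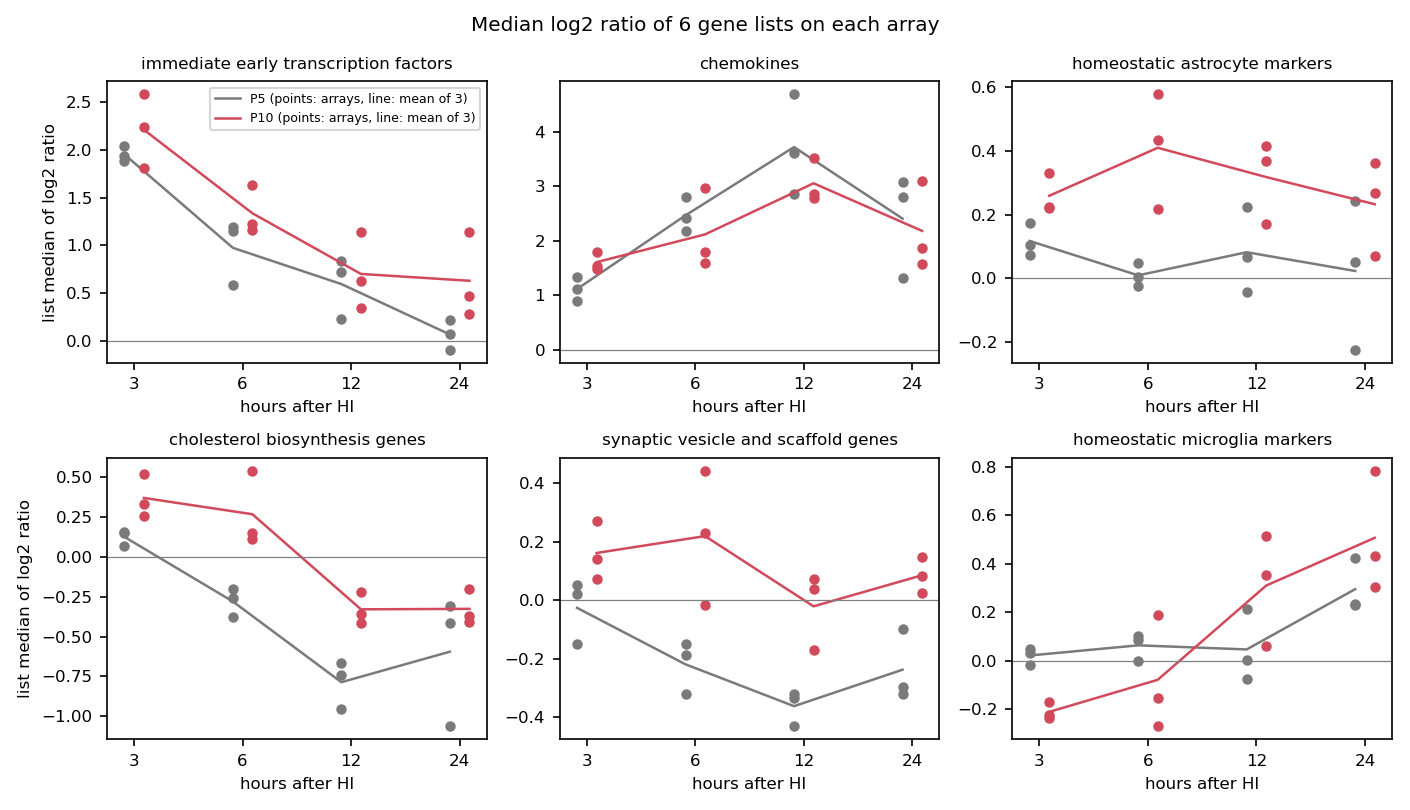
Median log2 ratio (HI over naive, y axis) of 6 gene lists at 3, 6, 12 and 24 h (x axis) at P10 and P5, 1 point per array and a line through the mean of the 3 arrays, each median over the members tested at that time. At P10 the immediate early genes lie between 1.81 and 2.58 on the 3 h arrays and between 1.16 and 1.63 on the 6 h arrays, and the chemokines between 1.59 and 2.97 at 6 h and between 2.79 and 3.52 at 12 h.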

How the data were processed

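RNA of hemispheres was compared on two-colour Agilent arrays, with HI in Cy5 and naive in Cy3. The authors extracted spots with Agilent Feature Extraction 10.5.1.1. The deposited intensity values are processed signals, which per the file headers are background-subtracted and dye-normalized by Lowess within each array, next to raw spot and background medians. The deposited log10 values are ratios of red to green processed signal and served as an alternative. Groups, replicate numbers and dyes came from the sample labels.

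Control spots (1377 of 44397) and spots called outliers by the scanner software (190, 245 and 401 on the P10 6 h arrays) were left out, the spots of a probe averaged, and log2 ratios of HI over naive taken. Of 39429 probes 27427 were named through RefSeq (20832 genes) and 12002 were not. Probes with a mean signal of at least 100 in 1 dye and at least 2 ratios were tested with limma 3.58.1 (R 4.3.3), 1 coefficient per age and time on all 24 HI arrays, with Benjamini-Hochberg adjustment over the probes tested. Probes were called at an adjusted p under 0.05 with a change over 1.5-fold. Differences between ages and times are contrasts of the same fit. On simulated data of this design 183 of 200 changed probes among 19472 were recovered (88 of 100 changed 2-fold, 95 of 100 changed 4-fold) with 4 false calls. The simulated noise was normal and independent between arrays, without slide effects, dye bias or an outlying array. These counts therefore do not give the error rate of the real calls.

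"At least" folds replace a naive signal not well above background by the lowest signal that was. Members and gene lists were chosen with earlier results of these data known. Named genes are the 15 most induced and 15 most repressed with 1 direction on all arrays, up to 4 called members per list (or the 2 largest not called), and the 8 largest called differences per contrast and direction. Some genes that this rule names are not reported here. A gene outside this rule is marked where it appears with a value.

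Each P10 slide holds 1 replicate number at all 4 times. Deviations from the group means correlated between same-numbered arrays of 6 and 3 h (0.37, 0.44 and 0.13) and less evenly between 6 and 12 h (0.41, 0.46 and 0.02), so slide was taken as a block beside both contrasts.

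Alternatives were to test every probe, to test probes well above background, to fit the 3 arrays or the 12 P10 arrays alone, slide as random block (statmod 1.5.0), a replicate block, dye bias estimated from the P2 and P15 arrays taken out, normexp (offset 50) and loess on the raw medians, the deposited ratios, the brightest probe, the zero test of the methods (corrected or not), the 2-fold rule on 2 of 3 arrays, and leaving out each array. Leaving out probes that stood apart on 1 array, and ranking without replicate 3, were added after the data were seen. Array number limits precision. The arrays of naive P2 and P15 pools were used only for the dye bias.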

Additional observations from a re-analysis of the deposited data

Results flagged for a closer look

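Differences between ages or times that were tested directly and called are listed here as values of the log2 ratio at P10 6 h minus that of the other group. Of named genes, 332 were higher and 272 lower at P10 than at P5 at 6 h, 4 were lower at 6 h than at 3 h, and 7 were higher and 17 lower at 6 h than at 12 h.

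Against P5 the differences were 1.29 for Tubb2b, 1.23 for Bcl11b, 1.22 for Slc4a4, 1.21 for Egr4, 1.19 for Slc1a2, 1.19 for Grin2b and 1.18 for Dpysl3. In the other direction they were -1.34 for 1110015O18Rik, -1.17 for 4831440E17Rik, -1.16 for Zfp830, -1.07 for Lrif1, -1.04 for Agrp, -1.03 for Arl16, -1.03 for Cd209f and -1.01 for Mterf1b.

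Against 3 h the differences were -1.48 for Hes5, -1.11 for Btg2 and -0.81 for Klf6. Against 12 h they were 1.02 for Tuba1b, 0.98 for Tuba4a, 0.94 for Mvd, 0.94 for Fdft1, 0.68 for Msantd1 and 0.65 for Wdr33, and in the other direction -1.14 for Omg, -1.07 for Angpt1, -1.0 for Cntf, -0.86 for Bbs12, -0.84 for Lrif1, -0.81 for 6530411M01Rik, -0.81 for Nudt7 and -0.77 for Lrrtm3.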

How the results depend on the processing

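Of the 930 inductions and 902 repressions at P10 6 h, the counts became 1462 and 1543 with no signal filter (all 20832 genes tested), 552 and 262 with normexp and loess, and 245 and 162 with the 2-fold rule. The zero test of the methods gave 0 and 0 after Benjamini-Hochberg correction and 675 and 618 without it. Leaving out each array gave 778 to 1005 inductions and 858 to 1100 repressions, and leaving out the probes that stood apart on 1 array gave 925 and 879. Age differences ranged from 97 to 524 higher at P10 and from 117 to 408 lower when 1 array was left out, and normexp and loess gave 51 lower. The difference between 6 and 3 h was higher at 6 h for 39 genes with the replicate block, 36 with slide as random block and 0 to 15 without 1 array. It was lower for 1 gene with no signal filter, 176 with the block, 163 with slide as random block, 1 with normexp and loess, and 1 to 135 without 1 array. Between 6 and 12 h the higher genes numbered 0 with no filter, 1 with the filter on probes well above background, 54 with the replicate block, 54 with slide as random block, 2 with normexp and loess and 0 to 23 without 1 array, and the lower genes 0, 7, 72, 79, 4 and 0 to 50. The replicate block, fitted within each age, changed no call of the 151 named genes called at P10 6 h. It gave 390 genes higher and 319 lower at P10 than at P5. It does not pair P5 with P10 arrays, whose deviations correlated by same number at -0.08, 0.09 and 0.01. Of those 151 genes normexp and loess kept 108 calls and leaving out replicate 1, 2 or 3 kept 139, 138 and 131. Where tested on the probe given in the text, none of these 151 genes changed direction. On their brightest probe Zrsr2 (0.53), Camk4 (-0.25) and Tgm2 (-0.06) had the opposite sign and were not called. The cause of these shifts was not tested.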

Other observations

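Gene families outside the lists were counted after their values were seen. Over all named genes tested, 7.62% were induced and 7.39% repressed. Of 272 zinc finger genes with a Zfp symbol, most of them presumed DNA-binding repressors, 57 were repressed (21.0%) and 9 induced (3.31%) at P10 6 h, at a median log2 ratio of -0.19 against -0.01 over all named genes. Of 9 genes of the Bardet-Biedl group, which act in transport to the cilium, 5 were repressed (Bbs7, Bbs9, Bbs10, Bbs12 and Mkks) and 0 induced by limma, at a median of -0.62. Of 5 Slitrk genes, synaptic adhesion proteins, Slitrk1, Slitrk5 and Slitrk6 were repressed. The other families counted gave 4 inductions and 5 repressions in 22 Pcdh genes (protocadherins), 5 and 2 in 36 Dnaj genes (co-chaperones), 3 and 0 in 17 tubulins, 1 and 1 in 4 Bhlh genes, 1 and 2 in 88 olfactory receptors, 0 and 1 in 26 Vmn genes (vomeronasal receptors) and 0 and 0 in 1 small nucleolar RNA gene.

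At P10, 54 genes were induced at 6 h and repressed at 24 h on the same probe, among them Csf3r, Lhx6, Cat, Klf4, Mef2a, Dnajc5, H2-Q4 and Oprm1. On any probe, 72 of the 885 inductions tested at 24 h were repressed there, against 881 of all 12150 named genes tested. Such an overlap alone therefore does not set the group apart. Their median naive signal was 6965 against 353 for the other 973 probes induced at 6 h. Their median log2 ratio was 0.74 at 6 h, after -0.06 at 3 h, then 0.69 at 12 h and finally -0.69 at 24 h, while P5 pups had 0.21 at 6 h. At 3 h 2 of them were called as induced and at 12 h 33 were. The group was defined from these data, so the signs of its medians at 6 and 24 h were fixed by that choice. Its brightness was compared without a test.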
